A study of Oryza sativa with 2 samples.

Results

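The Aux/IAA repressors and the auxin response factors (ARFs) of rice were examined in seedlings exposed to a carbon ion beam and in untreated seedlings. Probes were chosen by name. A probe was taken when the symbol or a synonym of its single gene began with IAA or ARF and a number. The prefix Os was allowed. The rule itself uses no measured value, but the choice was made with earlier results of these data known. In all, 44 of 22574 probes met this rule, for 41 of the 15798 genes that had a probe of their own. They comprised 26 probes for 25 Aux/IAA genes and 18 probes for 16 ARF genes. The RefSeq gene table holds 51 genes with such names, and the 10 without a probe by this rule were not analysed here. A total of 8 of the 41 genes are listed under more than 1 family number, and these are given with a slash, as in IAA1/IAA13. The tables carry no gene descriptions, so the letters ARF were taken to mean an auxin response factor and not an ADP-ribosylation factor, a family that uses the same letters.

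Auxin is a plant hormone that directs cell division, elongation and root formation. When auxin is scarce, Aux/IAA proteins bind ARFs, which are transcription factors seated on auxin-responsive promoters, and hold those genes silent. When auxin is present, it joins an Aux/IAA protein to a receptor of the TIR1/AFB family, the Aux/IAA protein is degraded, and the ARF is released. Many Aux/IAA genes are themselves transcribed in response to auxin, so their transcripts are often read as a sign of auxin signalling.

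Whole 7-day-old rice (Oryza sativa) seedlings, grown on MS medium, were irradiated for 2 h 35 min at HIMAC, an accelerator for heavy ions, and the controls were healthy seedlings without irradiation. The labels used here give no cultivar, dose or interval between irradiation and harvest. RNA of irradiated and control seedlings was hybridised together on 2 two-colour arrays, with irradiated RNA in Cy5 on the first array and in Cy3 on the swapped array. Both arrays carry the same replicate number, so they were counted as 1 replicate per group. No difference given here therefore has a replicate check, no p-value could be given, and the difference between the arrays shows technical error only. In whole seedlings fewer cells of a type and less RNA per cell cannot be told apart.

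Values below are log2 ratios of irradiated over control after removal of each array's trend of ratio with spot intensity, so that 1 is a 2-fold higher and -1 a 2-fold lower ratio. Their direction is likely but not certain, because it rests on reading the deposited ratios as Cy5 over Cy3. Spot intensity was rebuilt from the ratios, and decile 10 holds the brightest probes. Across probes the normalized arrays correlated at r = 0.56 over the brightest 4515 probes, in deciles 9 and 10, and at r = -0.28 over all 22574. By decile this Pearson correlation was below 0 in deciles 1 to 8. The rank correlation was below 0 in deciles 1 to 7 and 0.18 in decile 8. The rows of the array include 4715 that the annotation does not list. Of 8 photosynthesis probes, 7 lay in the brightest decile, while all 5 probes of seed storage genes lay in the dimmer 5 deciles. Of the 44 auxin probes, 17 lay in the dimmer 5 deciles and 12 in deciles 9 and 10.

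None of the 44 probes was at least 2-fold higher or at least 2-fold lower in irradiated seedlings on both arrays (0 higher and 0 lower). Over all probes, 1.93% were at least 2-fold higher and 0.257% were at least 2-fold lower by the same criterion. At 1.5-fold the auxin probes again numbered 0 higher and 0 lower, where 3.71% and 1.53% of all probes passed. With 44 probes such shares correspond to few probes, so the counts of 0 do not set these families apart from the rest of the array. The median of the auxin probes was 0.10 on the first array, -0.06 on the swapped array and -0.08 for the mean of the arrays, against -0.01 for all probes. The means of 38 of the 44 probes (86.4%) lay within 0.5 of 0, compared with 81.9% of all probes.

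**Figure D1:**
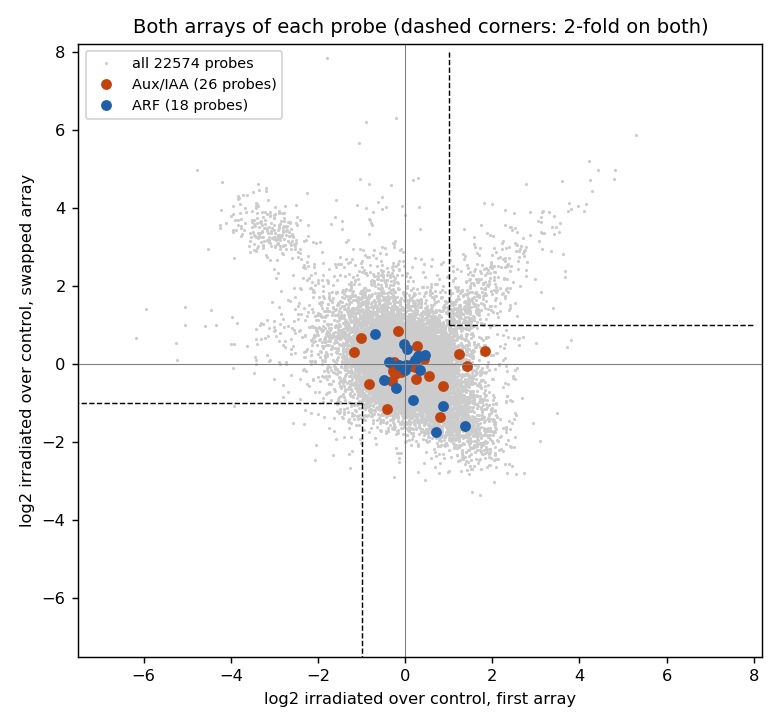
Log2 ratio of irradiated over control on the first array (horizontal axis) against that on the swapped array (vertical axis). Grey points are all 22574 probes, coloured points are the 26 Aux/IAA and 18 ARF probes, and the dashed corners enclose probes past 2-fold on both arrays; 0 of the coloured points fall inside either corner.

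The arrays agreed in sign for 22 of the 44 probes (50.0%), 9 of them higher and 13 lower on both. This compares with 44.4% of all probes and 46.0% of the probes with 1 gene. Over all probes 22.3% were higher and 22.1% were lower on both arrays. In the brighter 5 deciles the signs agreed for 16 of 27 auxin probes (59.3%) and for 52.4% of all probes. The repressors and the response factors had similar medians, at -0.08 for the 26 Aux/IAA probes and -0.04 for the 18 ARF probes. Their ranges differed. The Aux/IAA means ran from -0.79 to 1.08, and the ARF means from -0.52 to 0.34. Probes of a family are not replicates, so no test was made between the families.

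**Figure D2:**
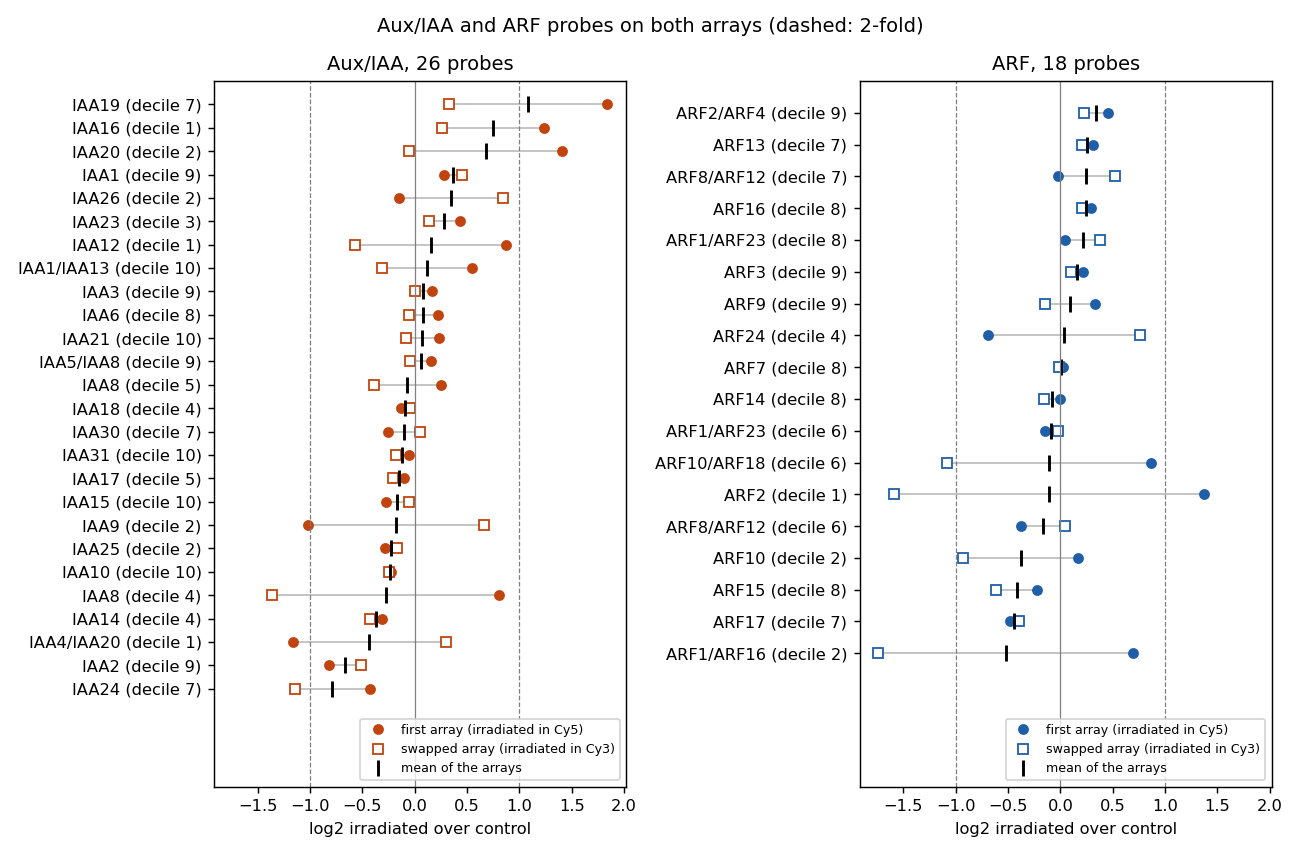
Log2 ratio of irradiated over control (horizontal axis) for each Aux/IAA probe (left) and ARF probe (right), on the first array (filled circles) and the swapped array (open squares), with the mean as a black bar and the intensity decile beside each name. IAA19 has the highest mean at 1.08 and IAA24 the lowest at -0.79, and the longest lines, which join values of opposite sign, belong mostly to dim probes.

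Among the repressors, IAA19 (LOC4339588) had the highest mean. The deposited ratios of its probe reduce to 480 over 109 on the first array and 607 over 311 on the swapped array, where Cy5 over Cy3 stands for irradiated over control on the first and control over irradiated on the swapped array. The dye trend at its intensity was 1.23 and 2.45, so the normalized values were 1.84 and 0.33, with a mean of 1.08 or 2.12-fold. Both arrays were thus on the higher side, but only the first passed 2-fold, and the arrays differed by more than the mean itself. A mean at least this high was found in 2.71% of all probes and in 3.32% of the probes of its decile, the seventh. With median centring in place of the trend its mean was 0.84.

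IAA16 (LOC9272441) and IAA20 (LOC4340245) followed, both from dim probes. IAA16 stood at 1.23 and 0.26 on the first and swapped arrays, a mean of 0.75, and IAA20 at 1.41 and -0.06, a mean of 0.68. For both, the higher value came from the first array, and IAA20 was not higher on the swapped array. Means as high as these were found in 5.49% of the dimmest decile for IAA16 and in 6.69% of decile 2 for IAA20. IAA1 (LOC4323871), a name also listed for the gene given here as IAA1/IAA13, had the next highest mean from a bright probe. It stood at 0.28 and 0.45, and its arrays lay closer together than those of the others named so far. A mean of 0.37 or above was nevertheless found in 15.3% of all probes and in 13.4% of the probes of its decile. IAA26 (LOC4347643) stood at -0.15 and 0.84 from a dim probe, so its mean of 0.34 came from the swapped array alone.

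At the low end of the repressors stood IAA24 (LOC4342573) and IAA2 (LOC4326775). The IAA24 ratios reduce to 319 over 292 on the first array and 633 over 146 on the swapped array, against dye trends of 1.47 and 1.96. Its normalized values were -0.43 and -1.14, a mean of -0.79. A mean this low was found in 2.29% of all probes and in 1.24% of the probes of its decile. The IAA2 ratios reduce to 851 over 717 and 325 over 73, against dye trends of 2.10 and 3.11, and gave -0.82 and -0.52, a mean of -0.67. Both genes were lower on both arrays, but neither passed 1.5-fold on both. IAA2 is the lowest of the 12 bright auxin probes, and 2.39% of the probes of decile 9 had a mean as low. With median centring the mean was -0.70 for IAA2 and -0.74 for IAA24. With loess on the reduced terms, with no common factor restored, it was -1.42 for IAA2 and -0.78 for IAA24. IAA4/IAA20 (LOC4327919), from a dim probe, stood at -1.17 and 0.30, so its mean of -0.43 covers opposite signs.

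**Figure D3:**
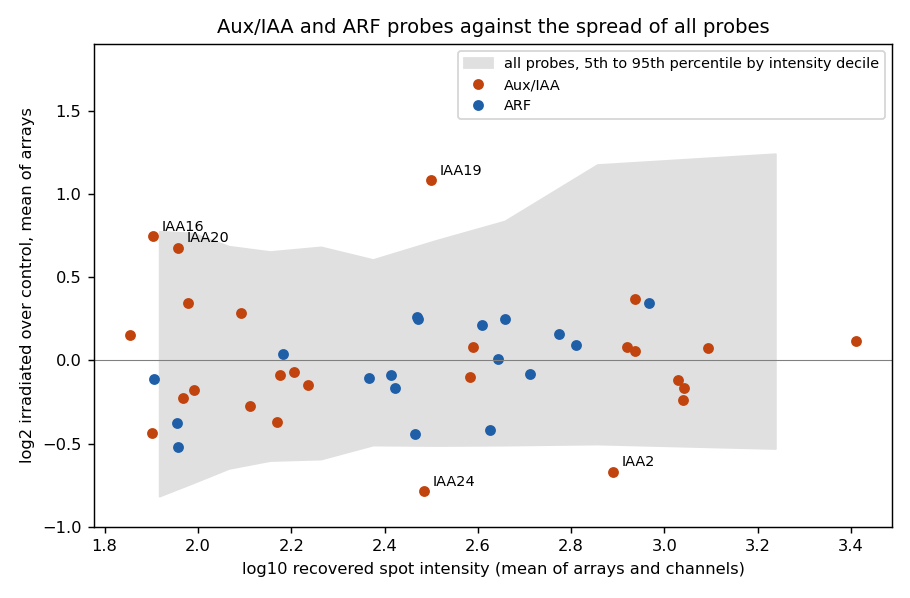
Mean log2 ratio of irradiated over control (vertical axis) against log10 of the recovered spot intensity (horizontal axis) for each Aux/IAA and ARF probe. The grey band spans the 5th to the 95th percentile of all probes by intensity decile; IAA19 lies above it, and IAA24 and IAA2 lie below it.

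Over all probes the arrays lay closest together in deciles 9 and 10, but this need not hold for each bright repressor probe. For several of these the intensity, and so the decile, rests on restored common factors. Apart from IAA2 and IAA1 the means of the bright repressor probes lay close to 0 in the main processing. IAA10 (LOC4331149) stood at -0.22 and -0.25, IAA15 (LOC4337971) at -0.28 and -0.06, and IAA31 (LOC4352722) at -0.06 and -0.18. These 3 were lower on both arrays by less than 0.5. IAA1/IAA13 (LOC4334069), a repressor that acts in lateral root initiation, stood at 0.55 and -0.32. IAA21 (LOC4340939) stood at 0.24 and -0.09, IAA3 (LOC4325890) at 0.17 and -0.0015, and IAA5/IAA8 (LOC4325515) at 0.16 and -0.04. The arrays disagreed in sign for these 4 genes, with means from 0.06 to 0.12. Loess on the reduced terms put the mean at -0.47 for IAA5/IAA8, 0.40 for IAA31, 0.34 for IAA1/IAA13 and -0.33 for IAA15. It left IAA10 at -0.25, IAA21 at 0.06 and IAA3 at 0.07. Over deciles 9 and 10, where 5.2% of all 4515 probes were at least 2-fold higher and 0.487% at least 2-fold lower on both arrays, 0 of the 12 auxin probes passed in either direction.

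IAA30 (LOC4352721) and IAA31 are neighbours in the gene table, with 0 protein-coding genes between them. IAA30 stood at -0.25 and 0.05, a mean of -0.10, and IAA31 had a mean of -0.12. Without restoration of common factors in the intensities both means turned, to 0.51 and 0.40. IAA23 (LOC4341432), a repressor needed to maintain the stem cell niche of the rice root, stood at 0.43 and 0.14 from a dim probe. IAA14 (LOC4334431) stood at -0.31 and -0.43, also from a dim probe, and IAA6 (LOC4326541), linked to drought tolerance and tillering in rice, at 0.22 and -0.06. The mean of IAA6 was 0.08, but 0.71 on the reduced terms. The remaining Aux/IAA genes were IAA25, IAA9, IAA17, IAA18, IAA12 and IAA8, with means from -0.28 for a probe of IAA8 to 0.15 for IAA12. All 7 probes of these 6 genes lay in the dimmer 5 deciles.

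Among the response factors no mean lay beyond 0.52 in size. ARF1/ARF16 (LOC4327785) had the lowest, at -0.52, but its values of 0.70 and -1.74 opposed each other and its probe was dim. ARF17 (LOC4341841), of the group of ARFs with an activating middle region, stood at -0.48 and -0.40, with -0.44 as its mean. Loess on the reduced terms put that mean at -0.87. ARF15 (LOC9268260), also listed as OsETTIN1 after the Arabidopsis factor ETTIN of flower patterning, stood at -0.22 and -0.62. These were the only ARF genes with a mean below -0.4 that were lower on both arrays. Means as low as theirs were found in 7.57% of the probes of decile 7 and 7.58% of decile 8. Over all probes the shares were 10.4% for ARF17 and 11.5% for ARF15. At the high end ARF2/ARF4 (LOC4326957), from a bright probe, stood at 0.46 and 0.22, a mean of 0.34, but with loess on the reduced terms the mean was -0.00405. ARF13 (LOC9269399) stood at 0.31 and 0.21, with a mean of 0.26 that became 0.78 on the reduced terms, and ARF3 (LOC4327014) at 0.22 and 0.10.

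ARF16 (LOC9270361), which in rice takes part in the root response to phosphate starvation, depended on how its intensity was rebuilt. Its ratio on the first array reduces to 2 over 1, which leaves the intensity to be taken from the swapped array, where the terms were 839 over 354. It then stood at 0.29 and 0.20, a mean of 0.25. With common factors limited to 59 its mean was 1.04, and with none restored it was 0.95. ARF24 (LOC4352211), which with ARF23 controls an actin-binding formin in rice, stood at -0.69 and 0.76. ARF7 (LOC4329672) stood at 0.03 and -0.02, and ARF9 (LOC4335934) at 0.33 and -0.14. ARF14 (LOC4339313) stood at -0.01 and -0.16. These 4 genes had means from -0.08 to 0.09. On the reduced terms the means were -0.74 for ARF9, -0.39 for ARF14, 0.23 for ARF24 and 0.00098 for ARF7.

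The response factors with the widest gap between arrays, besides ARF1/ARF16, were 2 whose values were of like size and opposite sign. ARF2 (LOC4325895), also listed as OsETTIN2, stood at 1.37 and -1.59, and ARF10/ARF18 (LOC4341882) at 0.87 and -1.08. The mean of the arrays was -0.11 for both. ARF2 is in the dimmest decile and ARF10/ARF18 in decile 6. ARF10 (LOC4336419), another dim probe, stood at 0.17 and -0.93. If both deposited columns were irradiated over control, which the order of channels in the labels would also allow, ARF2 would be the only auxin probe past 2-fold on both arrays, on the higher side. That reading would make the correlation over the brightest 4515 probes negative, where it is 0.56 as read here. It would also make the correlation over all 22574 probes positive, where it is -0.28 as read here. In the decile of ARF2 the arrays as read here correlated at r = -0.52. Which reading holds was not tested.

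For 3 genes there were 2 probes each, and none of these 6 probes passed 1.5-fold in the same direction on both arrays. The probes of ARF8/ARF12 (LOC4337363), a factor that affects root elongation in rice, stood at -0.38 and 0.04 and at -0.02 and 0.52, with means of -0.17 and 0.25. The probes of ARF1/ARF23 (LOC4350610) stood at -0.15 and -0.02 and at 0.05 and 0.38, with means of -0.09 and 0.21, which were -0.69 and 0.77 on the reduced terms. Probes of both genes thus had means of opposite sign, separated by 0.42 and 0.30. The probes of IAA8 (LOC4330571) stood at 0.81 and -1.36 and at 0.25 and -0.39, with means of -0.28 and -0.07.

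Other genes of the auxin pathway, taken from lists of symbols, were also short of 2-fold on both arrays, with 0 of 34 probes higher and 0 lower for 32 genes. Their median was -0.01. The list of auxin conjugation and breakdown had a median of 0.05 over 17 probes, and was divided after its values were seen. GH3 enzymes, many of which join auxin to amino acids and so withdraw it, had a median of 0.35 over 10 probes of 9 genes, with 7 probes higher and 0 lower on both arrays, where 22.3% of all probes were higher and 22.1% lower. The highest was GH3.8 (LOC4343785) at 1.78 and 0.63, a mean of 1.20, from a probe in the dimmest decile, and it was the only one of the 34 probes past 1.5-fold in the same direction on both arrays. GH3.1, GH3.2 and GH3.4 had means of 0.35, 0.38 and 0.40, and GH3.6 and GH3.9 smaller means of 0.13 and 0.21. The brightest GH3 probe, that of GH3.5 in decile 9, stood at 0.02 and -0.09, a mean of -0.03. GH3.11, from the dimmest decile, had a mean of 0.39, but its arrays opposed each other. The probes of GH3.7 (LOC4341111) disagreed, at -0.33 from a dim probe and 0.34 from a brighter one.

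Enzymes that release auxin from conjugates or oxidise it are the rest of the list that was divided after its values were seen. They had a median of -0.34 over 7 probes, with 4 lower and 0 higher on both arrays. The shares of all probes were the same 22.1% and 22.3%. The undivided list of 17 probes had 7 higher and 4 lower on both arrays. The auxin oxidase DAO (LOC4336150) was the lowest at -0.35 and -1.11, a mean of -0.73. The hydrolase genes ILL2 and ILL3, both from dim probes, had the highest means, at 0.05 and 0.02. These means cover opposite signs, with ILL2 at -0.27 and 0.37 and ILL3 at -1.06 and 1.11. The 4 early-response probes were all lower on both arrays, as were 22.1% of all probes, with ARGOS (LOC4335949), a promoter of organ growth, at -0.47 and -0.83 and the lowest mean of -0.65. The other 3, CRLL3/LBD6 and the genes listed as OsCRL2 and OsCRL1b, had means of -0.36, -0.41 and -0.18. This list was matched by name only, so whether its genes respond early to auxin was not checked. Transport probes had a median of -0.06 over 9 probes, from -0.43 for LOC4346116 to 0.37 for LOC4327533, both dim. The first gene is listed under PIN4, OsPIN5b and PIN5C, and the second under PIN5 and PIN9. The spellings PID2 and pinA, which gave 3 of the 9 probes, may belong to genes outside auxin transport.

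The synthesis list held FIB/TAR2 (LOC4325198), which makes the precursor of auxin, with a mean of -0.05, and YUCCA1 (LOC9269185), which completes the pathway, with a mean of 0.25. The arrays opposed each other for both. The co-repressor TPR2 (LOC4327709), of the TOPLESS family that Aux/IAA proteins recruit, stood at -0.27 and 0.54. ASP1 (LOC4349962) stood at 0.05 and 1.55 from a dim probe, and that name is shared by a co-repressor and an aspartic protease. No gene named TIR1 or AFB, the receptors, was found among the named probes.

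**Figure D4:**
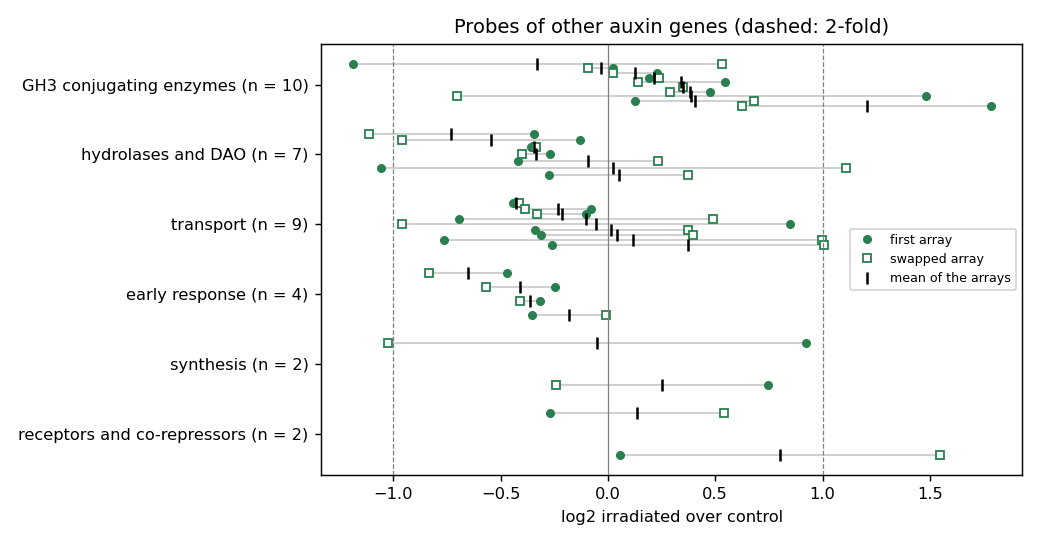
Log2 ratio of irradiated over control (horizontal axis) for the probes of other auxin genes by list, on the first array (filled circles) and the swapped array (open squares), with the mean as a black bar. GH3 probes lie mostly to the right of 0, with GH3.8 at a mean of 1.20. They were split from the other conjugation and breakdown probes after the values were seen. All 4 probes of the early-response list, matched by name only, lie to the left.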

How the data were processed

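The authors deposited 1 table of 22575 rows with 1 log10 ratio of the channels per array, and 22574 rows had both values. Per the series' design text, arrays were read on a GenePix scanner and GeneSpring was used for normalization. The deposited log10 values had medians of 0.051 and 0.20 and followed intensity, so they were normalized here. How background was handled, and which dye is the numerator, is not given in the sources used here.

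Each ratio was taken back to its simplest whole-number fraction. The geometric mean of the terms gave the intensity, after the most likely common factor was restored with the help of the other array (up to 59, up to 300 where both arrays had reduced intensities under 40, and up to 1000 where 1 did). Loess (statsmodels 0.14.6, span 0.3, 3 robustness iterations) was removed per array, values were taken to log2, and the swapped array was negated. The steps were run on simulated data whose outcome is not given here. The simulation took the rebuilt intensities as true and used the same noise at every intensity, unlike the arrays. It therefore cannot show whether the rebuilt intensities or the values of dim probes are right. Genes were named from the platform annotation, of which 17839 probes have 1 gene, on the grid of 105 rows and 215 columns counted from the opposite corner, and from the RefSeq table of assembly ASM3414082v1, used for names and order only. The annotation gives no background flag.

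Every member was reported, with both arrays for those past 1.5-fold, the 5 highest and lowest means and genes with several probes; other values were chosen for description after they were seen. Of the lists of other auxin genes, all values past 2-fold and the ends were to be named. The marker lists were narrowed after spellings such as RA and RP were seen to match other genes. Members and lists were chosen with earlier results of these data known. No sequences are shown, since none were in the sources used here.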

Additional observations from a re-analysis of the deposited data

How the results depend on the processing

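The counts of 0 higher and 0 lower auxin probes at 2-fold on both arrays were also 0 with median centring, reduced terms, loess on the mean intensity, factors up to 59, the 1.5-fold threshold, the brighter 5 deciles, probes averaged per gene, and Cy3 over Cy5. The first array alone gave 4 higher and 2 lower, the swapped array 0 and 5, and the mean of the arrays 1 and 0. With both columns read as irradiated over control they were 1 and 0, and with the annotation's numbers taken as listed 3 and 1. The median of -0.077 was 0.10 on the first array alone, 0.056 in the brighter 5 deciles, 0.077 with Cy3 over Cy5, 0.060 with both columns as irradiated over control and 0.048 with numbers as listed. Its sign was also lost with probes averaged per gene (0.0071) and with loess on the mean intensity (0.014), and it was -0.0067 with median centring, so no direction of the median is given. Of 16 probes named by rule, median centring and loess on the mean intensity each turned 1, while reduced terms and factors up to 59 turned 0. Reduced terms still moved 5 of the 16 by more than the SD of the arrays: IAA2 to -1.42, ARF17 to -0.87, IAA1 to 0.51, and the ARF1/ARF23 probes to -0.69 and 0.77. The first array turned 5 and the swapped array 3, and Cy3 over Cy5 turns the sign of every ratio. Outside the 16, reduced terms did turn means: ARF9 to -0.74, IAA5/IAA8 to -0.47, IAA30 to 0.51, IAA31 to 0.40 and ARF2/ARF4 to -0.00405. They also moved the mean of IAA6 from 0.08 to 0.71. Leaving out genes of other families by description was not run, because the tables hold no descriptions. Loess on the mean intensity, the factor limit, the column reading, the numbering and the medians by family were chosen after seeing the data. The number of arrays and the brightness of 17 dim probes limit the precision.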
